A study of Mus musculus with 16 samples.

Results

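Otoa, Itgad, Pla2g3, Klrg2, Wfikkn2 and Ccl17 are 6 genes that had their highest levels in the hypothalamus of mice fed the lowest-protein diets. They are 6 of the 47069 genes in a count table of 16 hypothalamus libraries, and all 6 were among the 16646 genes with enough counts to be tested. They were selected on these same counts, because each of the 4 libraries at 1% protein lay above each of the 4 libraries at 20% protein, so the 1% and 20% levels of the 6 genes are given as a description, without a test.

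The mice were C57BL/6N, an inbred laboratory strain, with no age or sex among the labels used here. They ate 1 of 8 diets, which supplied 60% or 20% of energy as fat, crossed with 1%, 2.5%, 5% or 20% of energy as protein. Each diet had 2 libraries, made from Trizol-extracted total RNA of the dissected hypothalamus, so each protein level had 4 libraries and each fat level 8. Nothing in the labels ties the paired libraries of one diet to different mice, so whether the spread behind each p-value is that between mice is unknown.

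The 6 genes encode proteins that act at or outside the cell surface, and none is a classical hypothalamic peptide or receptor. Ccl17 is a secreted chemokine that draws CCR4-bearing leukocytes, and it is best known as a product of dendritic cells. Pla2g3 is a secreted phospholipase A2, which frees a fatty acid from membrane phospholipids. Wfikkn2 is a secreted protein with several protease-inhibitor domains that binds the growth factors GDF8 (myostatin) and GDF11 and blocks their signalling. Itgad is the alpha D subunit of a beta2 integrin of macrophages and other leukocytes, and it works only when paired with the product of Itgb2. Klrg2 is a membrane protein related to the C-type lectin-like receptors of natural killer cells. Otoa encodes otoancorin, an inner ear protein that attaches the tectorial membrane to the cells beneath it.

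The library totals ran from 17731242 to 18511818 counts, and known features of the tissue were present: hypothalamic neuron markers summed to between 609 and 975 CPM (counts scaled to library size with TMM factors) at 1% protein and to between 793 and 927 CPM at 20% protein. A pair of libraries stood apart by markers of cortical and hippocampal neurons, with 5074 counts of Slc17a7 in replicate 2 of 20% fat with 1% protein and 10337 counts in replicate 2 of 20% fat with 2.5% protein, against 1267 to 2513 counts in the other 14. The library at 1% protein among them also had 3.2% of its counts in mitochondrial genes, whereas the other 3 libraries at 1% protein had 1.54% to 1.78% and the remaining 12 had 2.19% to 3.1%. Thalamic neuron markers in sum were higher in every library at 1% protein, at 410 to 648 CPM, than at 20% protein, at 245 to 343 CPM. Prkcd alone averaged 287 CPM at 1% protein and 137 CPM at 20%. In the edgeR test of 1% against 20% protein, 3 of the 6 rose (Prkcd, Tcf7l2 and Ramp3), where 8.26% of all tested genes did. Those that did not pass were Tnnt1 (log2 0.86), Lef1 (0.13) and Rgs16 (-0.07). Endothelial markers went the other way, at 154 to 167 CPM at 1% protein and 198 to 232 CPM at 20% protein. In the same test 6 of 7 fell, where 6.01% of all tested genes did. Mural cell and fibroblast markers were lower too, at 76.6 to 95.4 CPM at 1% protein and 111 to 122 CPM at 20%. Of these 6 markers 4 fell and 1, Kcnj8, rose. Of 8 oligodendrocyte markers 3 fell, and of 10 hypothalamic neuron markers 2 fell and 1 rose. Of 6 tested astrocyte markers 1 fell and 2 rose. The sums of the oligodendrocyte, hypothalamic neuron and astrocyte lists overlapped at 1% and 20% protein. The part of these differences in the levels of the 6 genes was not tested. In whole tissue, more or fewer cells of a type and more or less RNA per cell cannot be told apart.

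**Figure D1:**
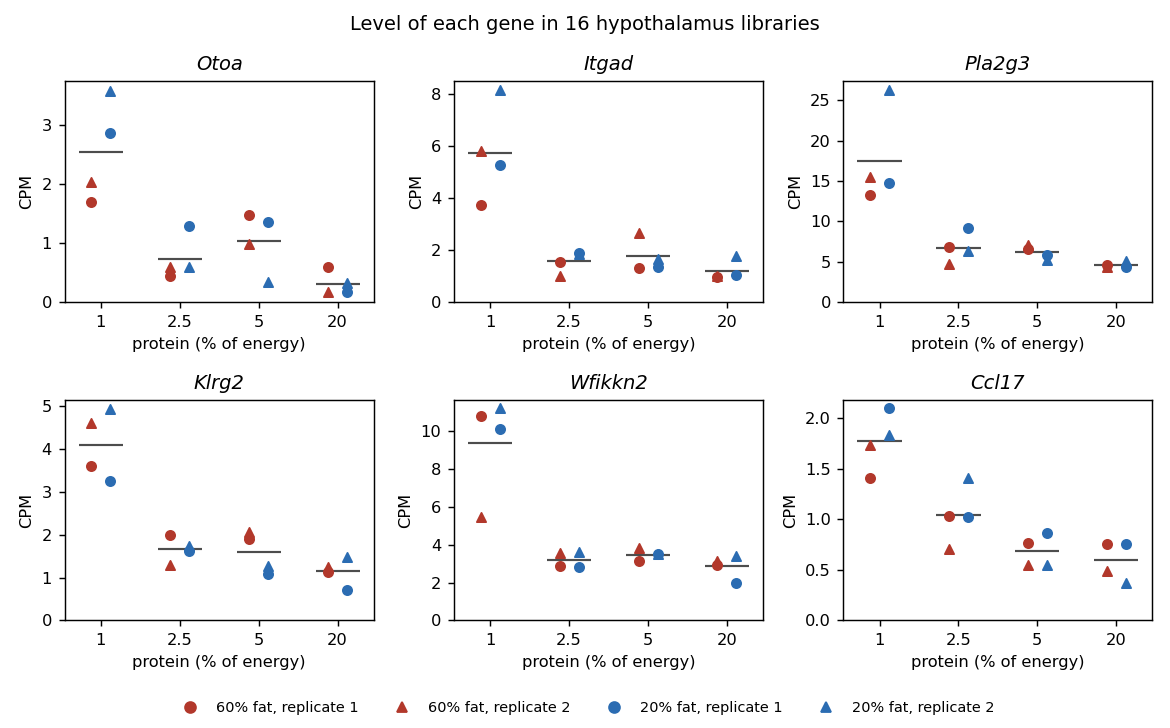
Level of each of the 6 genes (CPM, linear axis from 0) in the 16 libraries, by protein level. Red marks are 60% fat and blue marks 20% fat, circles are replicate 1 and triangles replicate 2, and the bar is the mean of the 4 libraries at a protein level. All 6 genes had their highest mean at 1% protein, and only Ccl17 had a library at 2.5% protein as high as one at 1%.

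Among the secreted proteins, Ccl17 lies on chromosome 8 (chr8:94810453-94812036, plus strand, build GRCm38), in a span of 1584 bases that overlaps no other annotated gene. In mice fed 60% fat, its libraries had 1.41 and 1.74 CPM at 1% protein, 1.03 and 0.706 CPM at 2.5%, 0.766 and 0.544 CPM at 5%, and 0.753 and 0.489 CPM at 20% protein. In mice fed 20% fat, they had 2.1 and 1.84 CPM at 1% protein, 1.02 and 1.41 CPM at 2.5%, 0.869 and 0.553 CPM at 5%, and 0.757 and 0.373 CPM at 20% protein. The means stepped down across the 4 protein levels, at 1.77 ± 0.287, 1.04 ± 0.29, 0.683 ± 0.161 and 0.593 ± 0.193 CPM from 1% to 20% protein (SD, n = 4 each), and each level overlapped the next. The highest library at 2.5% protein, replicate 2 of 20% fat, matched the lowest at 1%, and it is one of the pair with cortical markers. The fitted 1% over 20% difference was 1.57 on the log2 scale, or 2.96-fold. These levels rest on few reads, 7 to 38 per library.

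The 250 bases upstream of the RefSeq start of Ccl17 are shown because this gene is known to respond to STAT-family factors. The window is chr8:94810203-94810452, plus strand, RefSeq on GRCm38.p6, printed 5′ to 3′ and ending at the base before the start; capitals mark matches to the STAT element TTCNNNGAA and to the wider STAT element, whose spacer is 1 base longer.
Ccl17: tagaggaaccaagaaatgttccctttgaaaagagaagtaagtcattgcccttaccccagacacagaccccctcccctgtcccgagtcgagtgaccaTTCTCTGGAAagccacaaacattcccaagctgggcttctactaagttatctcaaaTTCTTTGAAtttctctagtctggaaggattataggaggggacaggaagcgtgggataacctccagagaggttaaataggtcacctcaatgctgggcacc
TTCNNNGAA began 99 bases and the wider element 154 bases before the start. Of 32851 mouse promoter windows of this length, 7.02% hold TTCNNNGAA and 5.85% the wider element, on either strand.

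Pla2g3, the secreted phospholipase, lies at chr11:3488284-3499350 on the plus strand, and its last 4976 bases overlap the 3′ part of Inpp5j on the minus strand. In mice fed 60% fat, Pla2g3 had 13.3 and 15.5 CPM at 1% protein, 6.77 and 4.73 CPM at 2.5%, 6.51 and 7.02 CPM at 5%, and 4.52 and 4.3 CPM at 20% protein. In mice fed 20% fat, it had 14.7 and 26.3 CPM at 1% protein, 9.15 and 6.26 CPM at 2.5%, 5.86 and 5.19 CPM at 5%, and 4.38 and 5.07 CPM at 20% protein. All 4 libraries at 1% protein stood above the other 12, and replicate 2 of 20% fat with 1% protein, which also carried cortical markers, stood far above its group. The means were 17.4 ± 5.94, 6.72 ± 1.83, 6.15 ± 0.793 and 4.56 ± 0.348 CPM from 1% to 20% protein (SD, n = 4 each). The levels at 2.5% and 5% overlapped, as did those at 2.5% and 20%, whereas the lowest library at 5% (5.19 CPM) lay just above the highest at 20% (5.07 CPM). The 1% over 20% difference was 1.92 on the log2 scale (3.79-fold). Inpp5j, a phosphoinositide phosphatase gene, had 885 to 1170 counts per library at 1% protein and 882 to 931 at 20%, a log2 difference of 0.23 (edgeR adjusted p = 0.0404). How the counting treated strand is unknown here, and reads of the shared bases cannot be told apart.

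Wfikkn2, the GDF8 and GDF11 antagonist, lies at chr11:94235956-94246005 on the minus strand and overlaps no annotated gene. In mice fed 60% fat, it had 10.8 and 5.46 CPM at 1% protein, 2.87 and 3.58 CPM at 2.5%, 3.12 and 3.81 CPM at 5%, and 2.9 and 3.15 CPM at 20% protein. In mice fed 20% fat, it had 10.1 and 11.2 CPM at 1% protein, 2.8 and 3.59 CPM at 2.5%, 3.48 and 3.48 CPM at 5%, and 1.95 and 3.41 CPM at 20% protein. Its pattern was a single step, with 3 of the 4 libraries at 1% protein near one level, replicate 2 of 60% fat between them and the rest, and 12 libraries on one low plateau. The means were 9.39 ± 2.67, 3.21 ± 0.436, 3.47 ± 0.283 and 2.85 ± 0.64 CPM from 1% to 20% protein (SD, n = 4 each), and the 3 higher protein levels overlapped one another. The 1% over 20% difference was 1.71 on the log2 scale (3.27-fold), while that of 2.5% over 20% was 0.17 and that of 5% over 20% was 0.28.

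Among the membrane proteins, the integrin gene Itgad lies at chr7:128154376-128223816 on the plus strand, 69441 bases that were counted whole, introns included. Its transcripts cover 4510 of these bases, so intronic reads can enter its count. In mice fed 60% fat, Itgad had 3.71 and 5.8 CPM at 1% protein, 1.52 and 0.978 CPM at 2.5%, 1.31 and 2.67 CPM at 5%, and 0.968 and 0.979 CPM at 20% protein. In mice fed 20% fat, it had 5.25 and 8.14 CPM at 1% protein, 1.88 and 1.85 CPM at 2.5%, 1.36 and 1.66 CPM at 5%, and 1.03 and 1.76 CPM at 20% protein. The 4 libraries at 1% protein lay above the other 12, and the 3 higher protein levels overlapped, with means of 5.73 ± 1.83, 1.56 ± 0.42, 1.75 ± 0.631 and 1.18 ± 0.386 CPM from 1% to 20% protein (SD, n = 4 each). The 1% over 20% difference was 2.26 on the log2 scale (4.8-fold). The span holds or overlaps 5 other annotated genes (Gm17831, Gm39091, 4931431B13Rik, Cox6a2 and Gm44850). All but Gm17831 are listed at 0 in every library and Gm17831 reached 1 count, so any reads from them may have been dropped or counted for Itgad.

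Klrg2, the lectin-like receptor gene, lies at chr6:38625693-38637242 on the minus strand and overlaps no annotated gene. In mice fed 60% fat, it had 3.6 and 4.61 CPM at 1% protein, 2 and 1.3 CPM at 2.5%, 1.91 and 2.07 CPM at 5%, and 1.13 and 1.25 CPM at 20% protein. In mice fed 20% fat, it had 3.26 and 4.94 CPM at 1% protein, 1.61 and 1.74 CPM at 2.5%, 1.09 and 1.27 CPM at 5%, and 0.703 and 1.49 CPM at 20% protein. The libraries at 1% protein formed one tight group above the other 12, at 4.1 ± 0.799 CPM. The means at 2.5%, 5% and 20% protein were 1.67 ± 0.29, 1.59 ± 0.48 and 1.14 ± 0.331 CPM (SD, n = 4 each), and these levels overlapped. The 1% over 20% difference was 1.84 on the log2 scale (3.58-fold).

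The Klrg2 promoter is shown because, like that of Ccl17, its RefSeq start lies at or close to the annotated start of the gene. The window is chr6:38637240-38637489, minus strand, RefSeq on GRCm38.p6, printed 5′ to 3′ and ending at the base before the start; capitals mark CCAAT boxes (CCAAT) and a GC box (GGGCGG, here on the other strand).
Klrg2: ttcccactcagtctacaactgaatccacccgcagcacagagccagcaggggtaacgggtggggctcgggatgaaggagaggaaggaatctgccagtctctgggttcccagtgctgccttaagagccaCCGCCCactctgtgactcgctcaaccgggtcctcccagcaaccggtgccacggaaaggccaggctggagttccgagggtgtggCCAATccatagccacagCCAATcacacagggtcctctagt
The CCAAT boxes began 40 and 23 bases before the start and the GC box 123 bases before it. Over all 32851 windows, 33.8% hold CCAAT and 32.7% hold GGGCGG. The Klrg2 window is 60.4% G and C and that of Ccl17 47.6%, against a median of 52.4% over all windows. On either strand, neither window holds AGAACA, one arm of the glucocorticoid response element (in 16.1% of all windows), or the TATA box TATAAA (12.4%), which says only that these letters are not there. The Klrg2 window holds no STAT element of either kind, and the Ccl17 window no CCAAT or GC box. The windows of Otoa and Wfikkn2 begin from RefSeq starts inside the annotated gene and are not printed; that of Otoa holds TTCNNNGAA 172 and CCAAT 185 bases before the start, and that of Wfikkn2 holds none of the motifs searched.

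Otoa, the otoancorin gene, lies at chr7:121081650-121163097 on the plus strand and overlaps no annotated gene. Its counted length, 79776 bases, is far above the 8439 bases its transcripts cover, so intronic reads can enter its count too. In mice fed 60% fat, it had 1.69 and 2.03 CPM at 1% protein, 0.433 and 0.597 CPM at 2.5%, 1.48 and 0.98 CPM at 5%, and 0.591 and 0.163 CPM at 20% protein. In mice fed 20% fat, it had 2.87 and 3.58 CPM at 1% protein, 1.29 and 0.598 CPM at 2.5%, 1.36 and 0.332 CPM at 5%, and 0.162 and 0.32 CPM at 20% protein. All 4 libraries at 1% protein stood above the other 12, but the levels at 2.5% and 5% protein overlapped, with libraries of one diet at 1.36 and 0.332 CPM (20% fat, 5% protein). The means were 2.54 ± 0.854, 0.73 ± 0.382, 1.04 ± 0.516 and 0.309 ± 0.202 CPM from 1% to 20% protein (SD, n = 4 each), and the 3 higher protein levels overlapped. The 1% over 20% difference, 2.99 on the log2 scale (7.95-fold), was the largest of the 6, and it rests on 3 to 11 reads per library at 20% protein, against 30 to 66 at 1%.

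Ranked over all 16646 tested genes by the 1% over 20% difference, Otoa was number 3, Itgad 7, Pla2g3 13, Klrg2 15, Wfikkn2 16 and Ccl17 21. The rule fixes that all 6 were higher at 1% than at 20% protein at both fat levels. Otoa had a log2 difference of 2.28 at 60% fat and 3.7 at 20% fat. The others had 2.28 and 2.26 (Itgad), 1.71 and 2.12 (Pla2g3), 1.78 and 1.89 (Klrg2), 1.42 and 1.99 (Wfikkn2) and 1.33 and 1.79 (Ccl17) at 60% and 20% fat. The rule that all 4 libraries at 1% protein exceed all 4 at 20% was met by 1232 genes, 7.4% of those tested. Its margin was narrowest for Wfikkn2, whose lowest library at 1% protein (5.46 CPM) was 1.6 times its highest at 20% (3.41 CPM), and widest for Otoa, at 2.85 times. Just outside the rule, Cd101 had 0.732 CPM in its lowest library at 1% protein and 0.747 CPM in its highest at 20%.

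The level was not graded evenly over the protein series. For 5 of the 6 genes, all but Ccl17, the libraries at 1% protein also stood above all 4 at 2.5% protein, as did those of 4.13% of tested genes, and the same 5 stood above all 12 other libraries, as did 1.77% of tested genes. All 6 stood above the libraries at 5% protein, as did 4.9%. These comparisons share the 1% libraries that chose the genes. The log2 difference of 1% over 2.5% protein was 1.87 for Itgad, 1.78 for Otoa, 1.54 for Wfikkn2, 1.37 for Pla2g3, 1.3 for Klrg2 and 0.77 for Ccl17. Against the 20% libraries, no gene of the 6 was separated at 2.5% protein, where 1.6% of tested genes were, and Pla2g3 alone was at 5% protein, where 1.59% were; these comparisons share the 20% libraries that chose the genes. The diets at 1% and 2.5% protein carry codes that start alike, and those at 5% and 20% protein carry codes with another start. What the start stands for is unknown here, so for 1% against 20% and for 2.5% against 5% it cannot be told apart from protein.

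The middle of the protein series gives a test that the choice of genes did not use. With edgeR's quasi-likelihood test over all 16 libraries and Benjamini-Hochberg adjustment over all tested genes, none of the 6 passed the test of 2.5% against 5% protein, and neither did any other tested gene (0% called; 717 genes had an unadjusted p below 0.05 and DESeq2 called 13). Ccl17 had the largest of these differences, 0.6 ± 0.26 (log2 ± SE, 95% interval 0.05 to 1.15, adjusted p = 1). Pla2g3 had 0.11 (interval -0.32 to 0.55), Klrg2 0.08 (-0.43 to 0.59), Wfikkn2 -0.11 (-0.57 to 0.35), Itgad -0.19 (-0.81 to 0.43) and Otoa -0.53 (-1.44 to 0.39), each with an adjusted p of 1. Nor did the 4 libraries at 2.5% protein lie wholly above those at 5% for any of the 6, as they did for 1.22% of tested genes, or wholly below them, as for 1.91%. The intervals of Pla2g3, Klrg2, Wfikkn2 and Itgad stay within 1 log2 unit of 0, and that of Otoa does not.

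Dietary fat was the other factor of the design, and the rule did not use it. None of the 6 passed the edgeR test of 60% against 20% fat, in which 0.00601% of tested genes were called: that is 1 gene, Rnf181, a ubiquitin ligase gene (log2 -5.32 ± 0.73, adjusted p = 0.0234), while 1297 had an unadjusted p below 0.05 and DESeq2 called 0. Klrg2 was the only one of the 6 with a positive estimate, 0.18 ± 0.16 (95% interval -0.16 to 0.53, adjusted p = 0.692). The other estimates were -0.31 (-0.72 to 0.1) for Itgad, -0.3 (-0.93 to 0.32) for Otoa, -0.24 (-0.62 to 0.13) for Ccl17, -0.22 (-0.52 to 0.08) for Pla2g3 and -0.09 (-0.4 to 0.22) for Wfikkn2, with adjusted p-values between 0.638 and 0.834. Both libraries with cortical markers were at 20% fat. Without them the estimates were -0.15 for Itgad, -0.24 for Otoa, -0.19 for Ccl17, -0.1 for Pla2g3, -0.02 for Wfikkn2 and 0.34 for Klrg2. The 8 libraries at 60% fat overlapped the 8 at 20% fat for all 6 genes; they lay wholly above in 0.018% of tested genes and wholly below in 0.012%.

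The difference in the 1% over 20% protein step between 60% and 20% fat was also tested, and edgeR called none of the 6 and no other gene (0% called; 1305 had an unadjusted p below 0.05). For Otoa the step was smaller at 60% fat by 1.43 ± 0.95 on the log2 scale, with a 95% interval of -3.46 to 0.6 that spans a wide range (adjusted p = 0.677). Without replicate 1 of 60% fat with 20% protein that difference was -0.25. For the others the interval ran from -1.02 to 1.07 (Itgad), -1.2 to 0.38 (Pla2g3), -1.09 to 0.87 (Klrg2), -1.46 to 0.34 (Wfikkn2) and -1.62 to 0.69 (Ccl17), with adjusted p-values of 0.712 to 0.992. With 2 libraries per diet, a step smaller by 1 log2 unit at 60% fat lies within the interval of each of the 6 genes.

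**Figure D2:**
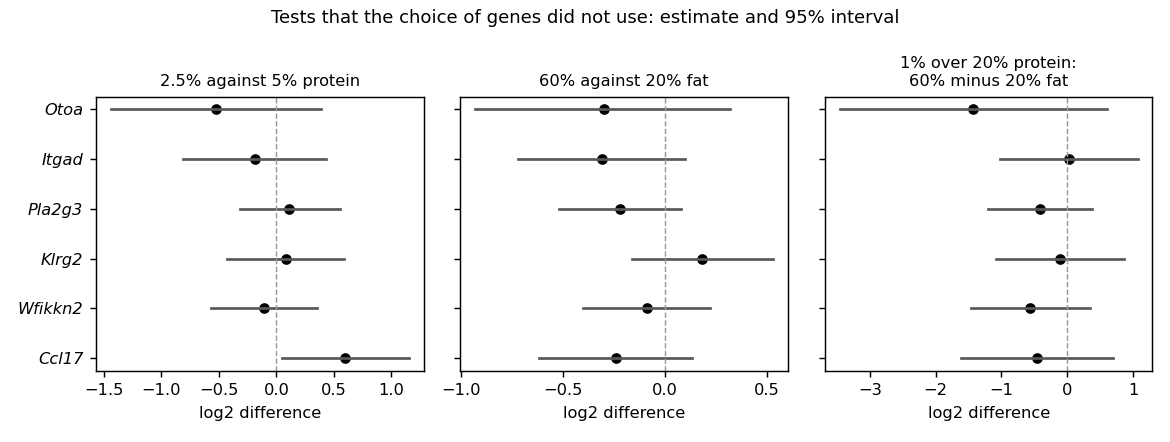
Estimated log2 difference (point) and its 95% interval (line) for each of the 6 genes in the 3 edgeR tests, from left to right 2.5% over 5% protein, 60% over 20% fat, and the 1% over 20% protein difference at 60% fat minus that at 20% fat. All but 1 of the 18 intervals include 0, and Ccl17 at 2.5% over 5% protein (0.05 to 1.15) is the other, with an adjusted p of 1.

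The partners and relatives of each gene were then read at 1% against 20% protein, where 14.3% of tested genes were called (8.26% higher and 6.01% lower) and the median log2 difference of all genes was 0.003. Without replicate 2 of 20% fat with 1% protein 33% of tested genes were called (16.5% higher and 16.5% lower), and without both libraries with cortical markers 34.8% (17.5% higher and 17.3% lower); the list counts from those fits are to be read against these shares. Of the partners of beta2 integrins and their ligands, 10 of 12 were tested, none rose and 2 fell, with a median of -0.28. Itgb2, the obligatory partner of Itgad, averaged 6.03 ± 0.435 CPM at 1% protein and 6.16 ± 0.351 CPM at 20% (log2 -0.03 ± 0.12, edgeR adjusted p = 0.896). The genes that fell were Vcam1, an endothelial ligand of alpha D (log2 -0.57, adjusted p = 0.000646), and Itgb1, the partner of many other alpha subunits (log2 -0.35, adjusted p = 0.000312); the endothelial markers were lower at 1% protein as well. Without replicate 2 of 20% fat with 1% protein, Itga4, an alpha subunit that pairs with Itgb1, fell as well. Itgax had 90 counts over all libraries and was not tested, and Itgam is listed at 0.

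Of 22 genes for the CCL17 receptor and other chemokines and atypical receptors, 11 were tested, none rose and Cxcl16, a membrane-bound chemokine, fell (1.25 ± 0.269 CPM at 1% protein and 2.1 ± 0.194 CPM at 20%, log2 -0.75, edgeR adjusted p = 0.0122), with a list median of -0.11. Ccl22, the other ligand of CCR4, had 78 counts over the 16 libraries and Ccr4 itself had 3, too few to test. Without replicate 2 of 20% fat with 1% protein, Ackr1 and Cxcl14 rose as well, and without both libraries with cortical markers 3 genes of the list rose (Ackr1, Cx3cl1 and Cxcl14) and 3 fell (Ccl27a, Cxcl12 and Cxcl16).

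Of 18 phospholipase A2 genes and their receptor, 13 were tested, with 1 up, 1 down and a median of 0. Pla2g4e, a cytosolic enzyme that makes N-acyl phosphatidylethanolamines, rose by a small margin (18.1 ± 1.95 CPM at 1% protein and 14.4 ± 0.811 CPM at 20%, log2 0.33, edgeR adjusted p = 0.0415), a call lost in 11 of the 16 fits that left out 1 library. Pla2g4a, the cytosolic enzyme that frees arachidonic acid, fell (2.04 ± 0.172 CPM at 1% protein and 4.42 ± 0.603 CPM at 20%, log2 -1.11, adjusted p = 0.00264). Without replicate 2 of 20% fat with 1% protein, 2 rose (Pla2g12a added) and 2 fell (Pla2g4c added). Pla2g4c did not pass with all 16 libraries (log2 -1.01) or without both libraries with cortical markers (-1.03). Pla2r1, a receptor for secreted phospholipases, had a log2 difference of -0.29 (adjusted p = 0.405).

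For the growth factors that Wfikkn2 binds, 16 of 18 genes of GDF8, GDF11 and activin signalling were tested, none passed and the median was -0.06. Gdf11 averaged 33.3 ± 3.7 CPM at 1% protein and 38.9 ± 2.57 CPM at 20% (log2 -0.23, edgeR adjusted p = 0.0937). Mstn, which encodes GDF8, had 28 counts over all libraries and was not tested, and Wfikkn1, the closest relative of Wfikkn2, is listed at 0. Without replicate 2 of 20% fat with 1% protein, the receptor genes Acvr2a and Tgfbr1 fell.

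Few relatives of Klrg2 and Otoa were measured. Of 18 lectin-like receptor genes 5 were tested and none passed. Klrg1 had 0.388 ± 0.071 CPM at 1% protein and 0.593 ± 0.133 CPM at 20% (log2 -0.6, edgeR adjusted p = 0.207). Clec7a, with 97 counts over all libraries, had the largest difference of the 5 (log2 -1.68, edgeR adjusted p = 0.0515). It fell past the threshold with the replicate number as a block. Of 10 otoancorin relatives and inner ear matrix genes 5 were tested and none passed; Strc, which encodes the related stereocilin, had 1.42 ± 0.362 CPM at 1% protein and 1.32 ± 0.328 CPM at 20% (log2 0.11, adjusted p = 0.782).

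Itgad and Ccl17 are textbook genes of leukocytes and Klrg2 is related to receptors of natural killer cells, so leukocyte markers are given beside them. Of 7 tested microglia markers, 4 of border macrophages and 2 of lymphocytes and natural killer cells, none passed at 1% against 20% protein. Of all tested genes 14.3% passed (8.26% higher and 6.01% lower), so counts in lists this short are not read as a result. Of 3 each for dendritic cells with monocytes and for neutrophils, 1 fell in each, Ccr2 (log2 -2.28, edgeR adjusted p = 0.0182) and Csf3r (log2 -0.35, adjusted p = 0.026). The summed levels overlapped at 1% and 20% protein, at 238 to 326 and 279 to 319 CPM for microglia, 5.41 to 10.7 and 8.58 to 11.4 CPM for border macrophages, 32.4 to 36.2 and 34.3 to 38 CPM for dendritic cells and monocytes, and 1.3 to 4.84 and 1.17 to 2.47 CPM for lymphocytes. Those of neutrophils were 6.74 to 8.78 and 8.42 to 10.3 CPM. Of the full lists, 3 of 8 dendritic cell and monocyte markers, 2 of 9 lymphocyte markers and 3 of 6 neutrophil markers had enough counts to be tested. The best detected over all 16 libraries together were Flt3 with 6378 counts and Zbtb46 with 3901 (dendritic cells), Csf3r with 2261 (neutrophils) and Cd4 with 361 (lymphocytes). Other defining markers were near 0, with 2 counts of Ncr1, 7 of Ly6g, 8 of Xcr1, 17 of Cd3g and 24 of Ccr7. Most of the dendritic cell and monocyte sum is thus Flt3 and Zbtb46, and most of the neutrophil sum is Csf3r. These sums are not read as levels of the cells. The part of these cells in the levels of the 6 genes was not tested. The choroid plexus sum varied more, at 56.2 to 268 CPM at 1% protein and 51.3 to 62.8 CPM at 20%. Of its 9 markers 1 rose, Ttr (log2 3.26, edgeR adjusted p = 0.0297), where 8.26% of all tested genes did. Ttr alone averaged 85.8 ± 89.5 CPM at 1% protein and 8.08 ± 4.74 CPM at 20%. At 1% protein the sums were 147 and 76.9 CPM at 60% fat and 56.2 and 268 CPM at 20% fat. Wfikkn2 had 10.8 and 5.46 CPM, and 10.1 and 11.2 CPM, in the same libraries. Replicate 2 of 20% fat with 2.5% protein had a sum of 225 CPM and 3.59 CPM of Wfikkn2. The part of choroid plexus in these levels was not tested.

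**Figure D3:**
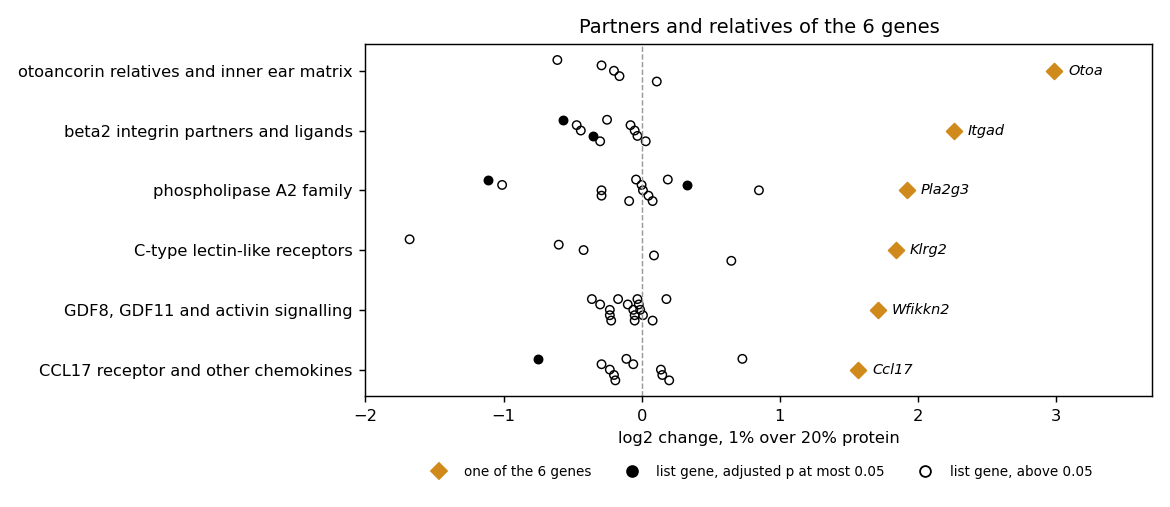
Log2 difference of 1% over 20% protein for each gene (gold diamonds, no test) and for the tested genes of its list of partners and relatives (circles, filled where the edgeR adjusted p is at most 0.05). The 6 genes lie between 1.57 and 2.99. They were chosen for being higher at 1% than at 20% protein and the list genes were not, so their place to the right is not a result. Of the list genes 5 are filled, 4 of them below 0.

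To find the genes with the most similar profile, log2 CPM was correlated over the 16 libraries with each of 13270 genes with a mean of at least 1 CPM, and the 3 highest Pearson r were kept. Because the 1% libraries lie above all others for 5 of the 6 genes, and above those at 20% for Ccl17 as well, r over all 16 takes in that step, and r within the 8 libraries at 2.5% and 5% protein is given beside it. The points share libraries, depth and RNA quality, and r is a description. The 8 libraries are also among the 16 over which the genes were picked, so r within the 8 is not independent of that choice. Pla2g3 was most like Fkbp5, a co-chaperone of steroid receptors (r = 0.967, rho = 0.962, and 0.882 within the 8 libraries). Sult1a1, a phenol sulfotransferase, and Gabrr2, a GABA receptor subunit, came next (0.966 and 0.963, and 0.813 and 0.783 within the 8). Itgad shared Sult1a1 (0.968, and 0.769 within the 8) and Fkbp5 (0.962 and 0.835) with Pla2g3, followed by Ddit4, a stress-induced inhibitor of mTORC1 (0.956 and 0.881). Klrg2 was most like Cdkn1a, the cell cycle inhibitor p21 (0.938 and 0.83), then Fkbp5 (0.933 and 0.641) and Phactr3 (0.933 and 0.706). Fkbp5 averaged 117 CPM at 1% protein and 47.1 CPM at 20%, and Cdkn1a 87.6 CPM at 1% protein and 21.7 CPM at 20%.

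Otoa was most like Rcan2, a calcineurin regulator (r = 0.908, and 0.627 within the 8 libraries), then the ketone and isoleucine enzyme gene Acat1 (0.892 and 0.826) and Angptl4, an inhibitor of lipoprotein lipase (0.868 and 0.572). Ccl17 was most like the kinase gene Camkk1 (0.91 and 0.697), the histone methyltransferase gene Ezh1 (0.904 and 0.694) and Zswim7 (0.903 and 0.787). For Wfikkn2 the nearest genes were Fbln5, an elastic fibre protein (0.918), Elmsan1 (0.918) and Selenbp1 (0.894), but within the 8 libraries these were -0.39, 0.001 and -0.185. Leaving out the 2 libraries farthest from the median on the y axis kept r between 0.808 and 0.964 for all 18 pairs. Libraries at 1% protein remain in that r, and the pairs were picked over the same libraries, so it is no check of the choice.

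**Figure D4:**
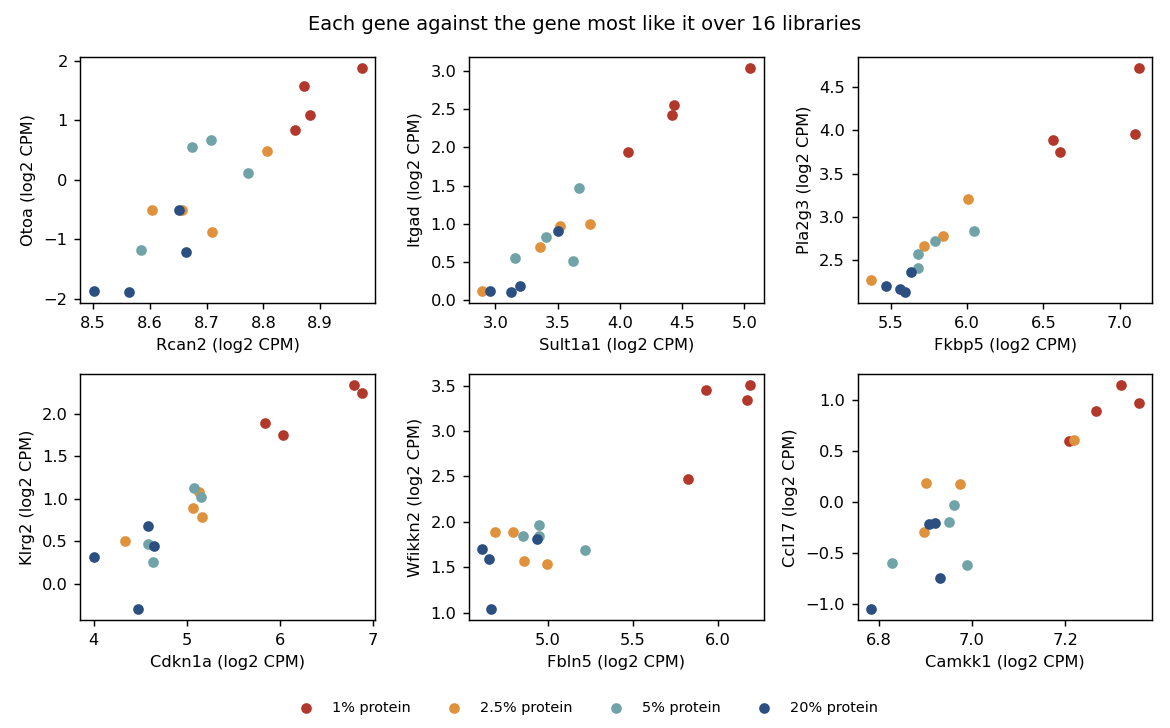
Log2 CPM of each of the 6 genes (y axis) against that of the gene with the highest Pearson r over 16 libraries (x axis), 1 point per library, coloured by protein level. Pla2g3 and Fkbp5 were high and low in the same libraries also among the libraries at 2.5% and 5% protein (r = 0.882), whereas Wfikkn2 and Fbln5 differ mainly between the libraries at 1% protein and all others (r = -0.39 at 2.5% and 5%). The libraries at 2.5% and 5% protein were part of the 16 that picked each pair.

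The 6 genes were also set against one another within the 8 libraries at 2.5% and 5% protein, which did not enter the choice. There r was 0.6 for Itgad and Pla2g3, 0.55 for Pla2g3 and Klrg2, and 0.51 for Itgad and Klrg2. Otoa had 0.5 with Pla2g3 but 0.06 with each of Itgad, Klrg2 and Ccl17. Ccl17 had 0.35 with Pla2g3, 0.15 with Klrg2 and -0.06 with Itgad. Wfikkn2 had -0.61 with Pla2g3, -0.41 with Ccl17, -0.25 with Klrg2, -0.15 with Otoa and 0.14 with Itgad. With 8 points per r these are descriptions of the libraries. The pooled SD of log2 CPM within a diet ran from 0.293 for Pla2g3 to 0.655 for Otoa.

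Replicate 2 of 20% fat with 1% protein, which stood apart by cortical markers and mitochondrial share, was the highest of all 16 libraries for every one of the 6 but Ccl17. Without it and the other library with cortical markers, the log2 differences of 1% over 20% protein were 2.82 for Otoa, 2.07 for Itgad, 1.68 for Pla2g3, 1.67 for Klrg2, 1.61 for Wfikkn2 and 1.57 for Ccl17.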

How the data were processed

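Hypothalamus RNA of 16 libraries was sequenced. The deposited counts are the authors' raw gene counts; HISAT2 2.1.0, SAMtools 1.2, featureCounts, Subread 5.0 and edgeR are named with build GRCm38, per the submitters' processing notes, with no strand setting named. The length counted for each of the 6 genes covers introns. Genes were kept with filterByExpr (minimum count 10) and TMM-scaled. edgeR 4.0.16 (R 4.3.3) quasi-likelihood F tests with Benjamini-Hochberg adjustment at 0.05 used protein as 4 levels plus fat, or the 8 diets for the interaction. log2 CPM had a prior count of 2. Scripts were tested on simulated data. DESeq2 1.42.0 and other settings were alternatives. Named genes were the 6, their overlapping genes, the 3 most alike, and list genes past the threshold (at most 4 per list) with 9 set partners; other genes were named after their values were seen. The genes, lists and motifs were chosen with earlier results of these data known. Spans come from GENCODE M21; promoters, matched for 4 of the 6, from RefSeq (GRCm38.p6). The pair whose RefSeq start lies at or close to the annotated gene start is printed.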

Additional observations from a re-analysis of the deposited data

Results flagged for a closer look

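Each of the 6 genes was checked at each protein level for a library far from the other 3 of its group of 4, 24 groups in all, and 2 were found; chance alone marks about 1 group in 20. Pla2g3 at 1% protein had 26.3 CPM in replicate 2 of 20% fat, against 13.3, 15.5 and 14.7 CPM in the other 3 libraries, and that gap was 0.831 of the group's range. This library also had 5074 Slc17a7 counts and a mitochondrial share of 3.2%; their part in the value was not tested. Itgad at 20% protein had 1.76 CPM in replicate 2 of 20% fat, against 0.968, 0.979 and 1.03 CPM in the other 3, a gap of 0.922 of the range.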

How the results depend on the processing

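None of the 6 genes passed any of the 3 tests under any alternative run. Over all genes, 2.5% against 5% protein gave 13 calls with DESeq2, 12 without the count filter, 19 without the 2 libraries with cortical markers and 0 to 4 with 1 library left out (4 without replicate 2 of 20% fat with 5% protein), against 0. The fat test, with 1 call, gave 0 with DESeq2, 2 without the 2 libraries and 0 to 2 with 1 library left out. The interaction gave 1 without the count filter. The list genes called numbered 14 without the 2 libraries and 4 to 12 with 1 left out (12 without replicate 2 of 20% fat with 1% protein), against 5. Of all tested genes, 34.8% were called without the 2 libraries, and with 1 left out 5.52% to 33% (33% without that same library), against 14.3%; the cause was not tested. Fits with a library left out also test more genes. Estimates that changed sign were those of fat on Wfikkn2 (0.0046 in the 8 libraries at 2.5% and 5% protein; -0.17 to 0.048 with 1 left out) and of the interaction on Pla2g3 (0.061) and Klrg2 (0.21) without the 2 libraries. With 1 library left out, the interaction ran from -2.07 to -0.25 for Otoa (-0.25 without replicate 1 of 60% fat with 20% protein, where Wfikkn2 had -0.62), -1.15 to -0.16 for Wfikkn2, -1.05 to -0.048 for Ccl17, -0.42 to 0.36 for Itgad, -0.77 to 0.061 for Pla2g3 and -0.76 to 0.32 for Klrg2, and 2.5% against 5% from -0.36 to 0.18 for Itgad, -0.037 to 0.23 for Pla2g3 and -0.048 to 0.22 for Klrg2. Pla2g4e ran from 0.26 to 0.39, with adjusted p up to 0.133 (edgeR). Fitted within one fat level, Otoa at 1% over 20% protein was 2.26 at 60% fat and 3.69 at 20% fat. With 1 library left out it was 2.71 to 3.57, and for the other 5 genes between 1.34 and 2.46.

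The replicate numbers gave little sign of pairing the libraries. Over 28 pairs of diets, same-numbered deviations correlated at -0.17 to 0.34, with a median of 0.02 and 7 over 0.1. With the replicate number as a block, the fat test gave 2 calls, the other 2 tests of all genes 0, and the list genes 6, with Clec7a added. Otoa and Ccl17 have the lowest counts of the 6, at 3 to 66 and 7 to 38 reads per library.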

Other observations

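Many genes are listed at 0 in a way that follows their position. Of 1119 coding genes whose span lies wholly inside that of another gene, 1074 (96%) are at 0 in all 16 libraries, against 2427 of 12477 (19.5%) that overlap no gene. Genes of the lists above at 0 in every library and inside another span are Wfikkn1, Ccl2, Ccl6, Ccl19, Cxcl10, Ackr4 and Pla2g4b, and Cox6a2 lies within Itgad. Itgam and Klrb1b overlap another gene in part, and Klrc1 overlaps none. The tissue markers P2ry12 of microglia and Gfap of astrocytes are also listed at 0, although 7 other microglia markers were tested. No level is read from these zeros.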
